A study of Mus musculus with 7 samples.

Results

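C-type lectin receptors are cell-surface proteins of myeloid cells that bind sugars, lipids, crystals or other proteins through a lectin-like domain. The 10 genes described here are Clec7a, Clec4a1, Clec4a2, Clec4a3, Clec4d, Clec4e, Clec4n, Clec5a, Clec12a and Clec2d. They were chosen by symbol from the 55401 gene identifiers of a bulk RNA-seq count table, and all 10 were found in it. Values are given as CPM, in which each count is divided by the effective size of its library. Clec7a was higher in bead-enriched cells, labelled microglia, from mice with Atg7 overexpression in engram neurons, at 64.7 ± 3.53 CPM (n = 3, SD) against 35.8 ± 5.83 CPM (n = 4, SD). It was the only 1 of the 10 to pass the test. Clec2d had values in the same direction that did not pass, and the 8 other genes overlapped between the groups.

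The libraries came from C57BL/6 mice aged 6 to 8 weeks, described in the series title as adult males. All mice carried AAV-RAM-Cre, injected into the dorsal dentate gyrus, a virus whose synthetic RAM promoter is switched on by neuronal activity, so that Cre is made in neurons recruited by an experience (engram neurons). The second virus was Cre-dependent and carried EYFP, a fluorescent protein, in the control group (EYFP 1 to 4), or Flag-tagged Atg7, an enzyme needed to form autophagosomes, in the other (ATG7 1 to 3). Microglia were enriched from dissociated hippocampus with magnetic beads against CD11b, an integrin that other myeloid cells carry too. The virus was aimed at neurons, while the RNA was that of the bead-enriched cells. The labels do not say whether each library is a separate mouse, so p-values measure the spread between these libraries, which may be technical.

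The receptors signal in opposite ways, and this sets the order of the results. Activating receptors reach the kinase Syk, either through a motif in their own tail (Clec7a, also called Dectin-1) or through the adaptors Fcer1g (Clec4n, Clec4d and Clec4e, also called Dectin-2, MCL and Mincle) and Tyrobp (Clec5a, also called MDL-1). Syk then acts through Card9, Bcl10 and Malt1 on NF-kB and the cytokine genes it controls. Inhibitory receptors such as Clec4a2 (DCIR) and Clec12a (MICL) recruit the phosphatases Ptpn6 and Ptpn11. Clec2d (Clr-b) is itself a ligand, read by the inhibitory receptor Klrb1b on lymphocytes. In brain, Clec7a is known as a marker of disease-associated microglia.

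Library totals lay between 35934210 counts (EYFP 1) and 55217119 counts (ATG7 2), so that 3 counts, taken as the detection floor, correspond to 0.0543 to 0.0835 CPM. All 10 genes were above this floor in every library. Atg7 did not check the labels in these cells, at 35.6 ± 1.68 CPM (n = 4, SD) in EYFP and 34.9 ± 2.76 CPM (n = 3, SD) in ATG7. One library went against the series title: EYFP 3 had 938.5 CPM of Xist, the RNA of the inactive X chromosome, where the other 6 libraries had 0.151 to 0.574 CPM. Its Y-linked Ddx3y was at 27.6 CPM, against 121.1 to 168.7 CPM in the others. The results for Clec7a and Clec2d are therefore also given without EYFP 3.

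Both genes are shown first with the DNA just before their transcription start, because they were the members with the largest differences. Each window is the 250 bases before the RefSeq start in GRCm38.p6, 5′ to 3′ on the gene's strand, at chr6:129472780-129473029 (minus strand) for Clec7a and chr6:129180365-129180614 (plus strand) for Clec2d. Capitals mark a match to the interferon-stimulated response element, searched on both strands as GAAA, any 2 bases and GAAA.
Clec7a: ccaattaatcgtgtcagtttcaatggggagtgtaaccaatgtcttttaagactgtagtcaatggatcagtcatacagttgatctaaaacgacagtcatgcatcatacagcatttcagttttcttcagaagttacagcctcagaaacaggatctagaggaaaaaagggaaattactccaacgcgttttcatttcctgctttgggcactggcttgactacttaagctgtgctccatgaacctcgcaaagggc
Clec2d: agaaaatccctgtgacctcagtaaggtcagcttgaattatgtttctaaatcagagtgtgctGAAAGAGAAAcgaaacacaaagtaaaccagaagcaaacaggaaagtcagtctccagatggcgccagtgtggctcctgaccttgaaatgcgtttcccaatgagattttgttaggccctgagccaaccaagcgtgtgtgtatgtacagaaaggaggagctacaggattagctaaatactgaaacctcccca
The Clec2d match begins at position -189, counted from the start site, and matches of this kind occur in 2.98% of the 32851 windows of this length in the promoter table. Windows were at hand for 9 of the 10 genes, and Clec2d was the only one of the 9 with this match.

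The remaining searches used the PU.1 core (GAGGAAG), the gamma-activated site (TTCNNNGAA), the AP-1 site (TGANTCA) and an NF-kB pattern (GGGA, any 4 bases and CC), on both strands. None of these patterns was present in the windows of Clec7a, Clec2d, Clec4a3 or Clec4e. The PU.1 core, the motif of a transcription factor that defines myeloid cells, was found in the windows of Clec12a, Clec4a1, Clec4d and Clec5a, and in 10.6% of all windows. Clec5a held it at 2 places, beginning at -82 and -56. The gamma-activated site was in the window of Clec4a2 (7.02% of all windows), the AP-1 site in that of Clec12a (6.75%) and the NF-kB pattern in that of Clec4a1 (17.6%). A match describes the letters only, and the letters of a pattern absent from a window may lie elsewhere.

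Clec7a (ENSMUSG00000079293) lies on chromosome 6 from 129461591 to 129472779 on the minus strand of GRCm38, and encodes the receptor for fungal beta-glucan. GENCODE M21 classes it as a polymorphic pseudogene, a class for genes intact in some strains and not in others. Its values were 41.4, 37.7, 27.6 and 36.5 CPM in EYFP 1 to 4, and 61.4, 64.3 and 68.4 CPM in ATG7 1 to 3. Each ATG7 library lay above each EYFP library. EYFP 3 was the lowest and ATG7 3 the highest. The gene rose 1.81-fold, a log2 fold change of 0.85 with a standard error (SE) of 0.116 and a 95% interval of 0.60 to 1.11 (adjusted p = 0.0105, quasi-likelihood test of edgeR with Benjamini-Hochberg adjustment over 19199 genes). Between 1246 and 3533 counts per library stood behind these values.

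Without EYFP 3, Clec7a was higher by 0.74 on the log2 scale (edgeR adjusted p = 0.00303, Benjamini-Hochberg). The call was lost without ATG7 2 (0.86, edgeR adjusted p = 0.0537) and without ATG7 3 (0.81, edgeR adjusted p = 0.0729), while the difference stayed above 0.74 in size in both. It was also lost with the replicate number as a block (0.88, edgeR adjusted p = 0.219). Over the 15 alternative fits the adjusted p ran from 4.38e-08 to 0.219, and 12 fits passed.

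Clec2d (ENSMUSG00000030157, chromosome 6, 129180615 to 129186534, plus strand) encodes Clr-b, the ligand of Klrb1b. It was measured at 30.7, 25.0, 21.4 and 22.5 CPM in EYFP 1 to 4, and at 31.9, 32.7 and 46.4 CPM in ATG7 1 to 3. The groups did not overlap, but EYFP 1 lay close to ATG7 1 and ATG7 2, and ATG7 3 stood above all other libraries. The difference of 0.57 on the log2 scale (SE 0.156, 95% interval 0.23 to 0.92) did not pass (edgeR adjusted p = 0.159, Benjamini-Hochberg). Without EYFP 3 it was 0.50 (edgeR adjusted p = 0.236). It passed in 2 of the 15 alternatives, the DESeq2 Wald test (adjusted p = 0.0227) and the edgeR fit without EYFP 1 (adjusted p = 0.0443), and the adjusted p of the 15 ran from 0.0227 to 0.708. The annotated Clec2d transcripts share 1.98% of their 50-base windows with Clec2g and Clec2i, so a small part of its reads could come from those relatives.

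**Figure D1:**
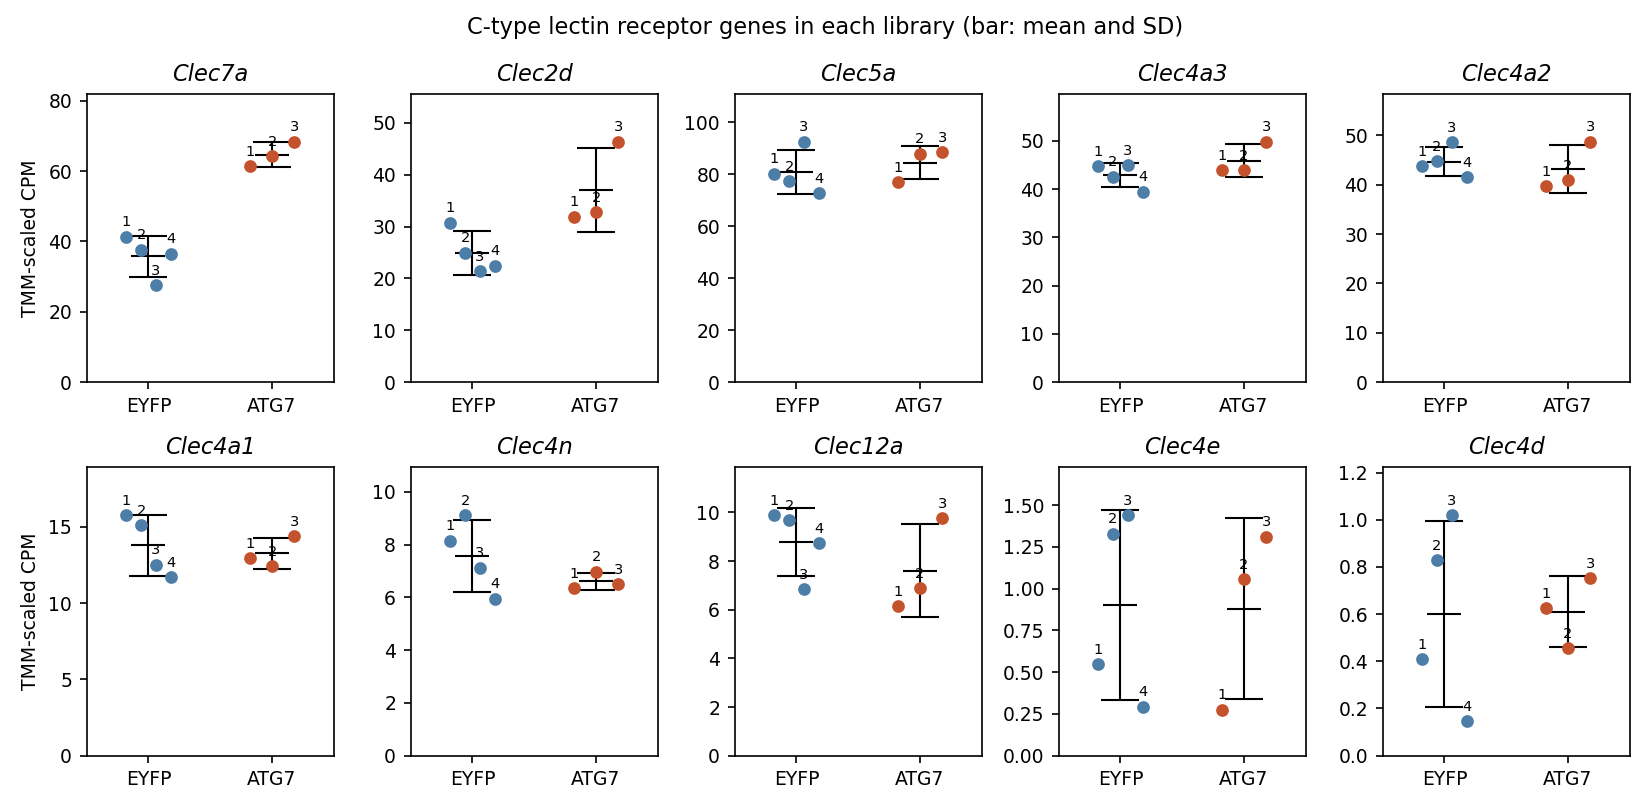
CPM of each of the 10 genes in the 7 libraries, 1 panel a gene, with numbered points for libraries and bars for the group mean and SD. The ATG7 libraries of Clec7a (61.4 to 68.4 CPM) all lie above the EYFP libraries (27.6 to 41.4 CPM), those of Clec2d lie just above, and the points of the other 8 genes overlap.

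The other receptors that signal through adaptors did not pass. Clec4n, or Dectin-2 (ENSMUSG00000023349, chromosome 6, 123229843 to 123247021), binds mannose-rich fungal sugars and was at 8.14, 9.11, 7.12 and 5.94 CPM in EYFP and 6.35, 6.97 and 6.49 CPM in ATG7. The ATG7 values lay within the EYFP range, with a log2 fold change of -0.20 (SE 0.155, edgeR adjusted p = 0.685, Benjamini-Hochberg). Clec5a (ENSMUSG00000029915, 40574894 to 40585821), the Tyrobp-coupled receptor that binds flaviviruses, was at 80.3, 77.3, 92.6 and 72.7 CPM in EYFP and 77.0, 87.9 and 88.4 CPM in ATG7. Its interval of -0.13 to 0.26 around a log2 fold change of 0.07 lay wholly below the interval of Clec7a (edgeR adjusted p = 0.843, Benjamini-Hochberg).

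Clec4d and Clec4e, neighbouring genes whose products pair on the cell surface to bind mycobacterial glycolipid, were scarce. Clec4d (ENSMUSG00000030144, 123262111 to 123275265) was at 0.410, 0.83, 1.02 and 0.147 CPM in EYFP and 0.625, 0.455 and 0.753 CPM in ATG7, from 6 to 46 counts. Clec4e (ENSMUSG00000030142, 123281789 to 123289870) was at 0.546, 1.33, 1.44 and 0.295 CPM in EYFP and 0.275, 1.06 and 1.31 CPM in ATG7, from 11 to 65 counts. Both varied more within EYFP than between the groups, with EYFP 4 the lowest and EYFP 3 the highest of the controls. Their 95% intervals, -1.17 to 1.18 for Clec4d and -1.35 to 1.28 for Clec4e on the log2 scale, include a change of the size seen in Clec7a in either direction (edgeR adjusted p = 0.999 and 0.991, Benjamini-Hochberg).

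The spread of these scarce genes ran beside that of neutrophil RNA within the controls. S100a8, an abundant neutrophil transcript, was at 14.7, 14.7, 17.8 and 8.57 CPM in EYFP 1 to 4, and S100a9, its partner, at 25.7, 28.5, 36.9 and 14.4 CPM. EYFP 4 was the lowest and EYFP 3 the highest control for both, as for Clec4d and Clec4e. In ATG7 1 to 3, S100a8 was at 5.90, 5.39 and 32.2 CPM and S100a9 at 7.97, 11.6 and 55.2 CPM. The highest library, ATG7 3, was also the highest of the group for both lectins. In ATG7 2, where S100a8 was lowest, Clec4e was at 1.06 CPM. ATG7 3 had more S100a8 and S100a9 than EYFP 3, but less Clec4d (0.753 against 1.02 CPM) and Clec4e (1.31 against 1.44 CPM). The part of neutrophil RNA in their values was not tested.

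None of the Clec4a genes, which include the inhibitory DCIR, passed the test. Clec4a2 (ENSMUSG00000030148, 123106428 to 123143999), the DCIR gene with an inhibitory motif, was at 43.7, 44.8, 48.6 and 41.5 CPM in EYFP and 39.7, 41.0 and 48.7 CPM in ATG7. ATG7 2 and EYFP 4 were close, and ATG7 3 matched the highest control. The fitted difference of -0.05 on the log2 scale had an interval of -0.24 to 0.15 (edgeR adjusted p = 0.884, Benjamini-Hochberg). Clec4a2 shares 6.83% of its 50-base transcript windows with other genes, mainly Clec4a4 and Clec4b1, the largest share among the 10. Its relative Clec4a3 (ENSMUSG00000043832, 122952515 to 122969875) was at 44.8, 42.5, 45.0 and 39.4 CPM in EYFP and 43.9, 43.9 and 49.8 CPM in ATG7, an interval of -0.07 to 0.27. Clec4a1 (ENSMUSG00000049037, 122921848 to 122934619), another DCIR relative, was at 15.8, 15.1, 12.5 and 11.7 CPM in EYFP and 12.9, 12.4 and 14.4 CPM in ATG7, an interval of -0.33 to 0.22. For these 3 genes a log2 change as large as the 0.60 at the lower end of the Clec7a interval lies outside the interval.

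Clec12a (ENSMUSG00000053063, chromosome 6, 129342691 to 129365303), an inhibitory receptor for uric acid crystals, was at 9.89, 9.68, 6.85 and 8.74 CPM in EYFP and 6.15, 6.88 and 9.76 CPM in ATG7. ATG7 1 was the lowest library and EYFP 1 the highest, with ATG7 3 among the high EYFP values. The log2 fold change was -0.21 (SE 0.182, 95% interval -0.61 to 0.19, edgeR adjusted p = 0.722, Benjamini-Hochberg). Clec12a lies between Clec2d and Clec7a on the chromosome and had the lowest fitted log2 fold change of the 10 genes.

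Counted together, 1 of the 10 genes was called higher in ATG7 and 0 were called lower by edgeR, against 0.688% and 0.0677% of the 19199 genes tested (0.755% in either direction). At an unadjusted p under 0.05 there were 2 of 10 members with ATG7 higher, against 6.27% of all genes, and 0 of 10 with ATG7 lower, against 5.71%. Limma-voom called Clec7a alone, beside 183 genes higher and 25 lower of all 19199. DESeq2 called Clec7a and Clec2d, beside 406 genes higher and 176 lower. In 2 of 10 the libraries of the groups did not overlap with ATG7 above, against 6.33% of all genes, and in 0 of 10 with ATG7 below, against 4.91%. The members' log2 fold changes were above 0 in 5 and below 0 in 5, with a median of -0.02 (all genes -0.0037) and a range of -0.21 to 0.85. The family thus had no common direction.

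**Figure D2:**
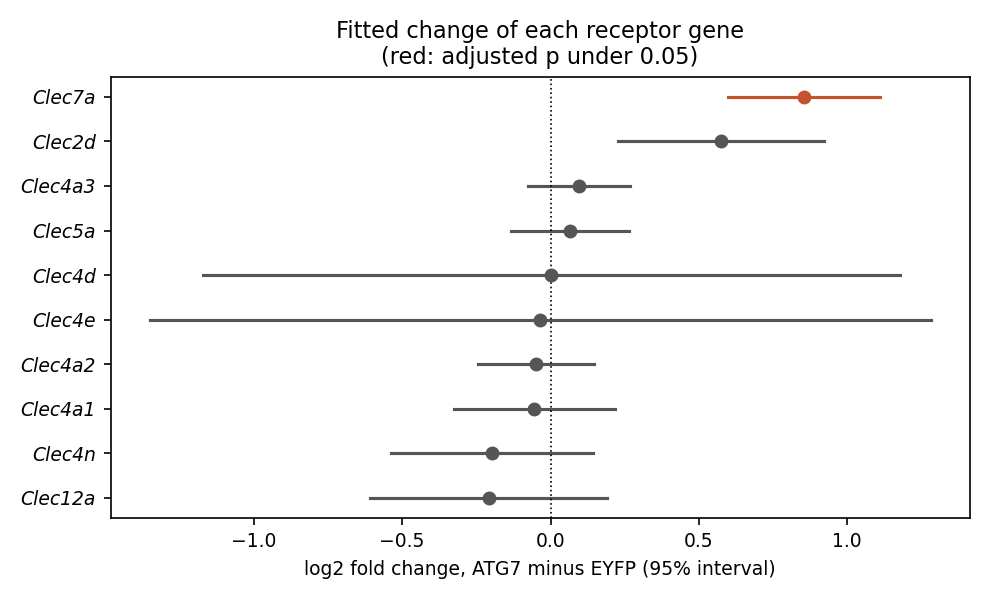
Log2 fold change (ATG7 over EYFP) of each of the 10 genes, with its 95% interval from edgeR. Clec7a (0.85) and Clec2d (0.57) have intervals above 0, Clec7a being the 1 that passed after adjustment, and the widest intervals belong to Clec4d and Clec4e.

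Levels were compared between genes as CPM per kilobase of annotated exon, because the exons of the 10 genes differ in length. In EYFP, Clec4a3 was highest at 32.3 ± 1.94 CPM per kilobase (n = 4, SD), above the range of every other member. Clec5a (21.02 ± 2.21) and Clec2d (20.5 ± 3.45) followed with overlapping ranges, and then Clec4a2 (15.3 ± 1.02) and Clec7a (13.6 ± 2.21), which also overlapped. Clec4a1 (8.84 ± 1.26), Clec4n (5.34 ± 0.960) and Clec12a (1.59 ± 0.251) each lay apart from the next. Clec4d (0.376 ± 0.248) and Clec4e (0.182 ± 0.115) were lowest and overlapped.

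In ATG7, the place of Clec7a in this order moved from 5 to 3. It reached 24.5 ± 1.34 CPM per kilobase (n = 3, SD), above the range of Clec5a (22.0 ± 1.68) and below that of Clec2d (30.5 ± 6.70). Clec4a3 remained first at 34.6 ± 2.57, with a range that overlapped that of Clec2d. The order of the 6 lowest genes from Clec4a2 (14.7 ± 1.67) to Clec4e (0.177 ± 0.109) was as in EYFP, apart from Clec7a. The exon lengths are those of GENCODE M21 and may differ from the intervals over which the counts were made.

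Of the 18 adaptor and kinase genes through which these receptors signal, 0 were called by edgeR, DESeq2 or limma-voom. In 4 of the 18 the unadjusted edgeR p was under 0.05 with ATG7 higher, beside 6.27% of all genes. Log2 fold changes were above 0 in 16 of 18, beside 9439 of all 19199 genes. The median was 0.15, against a median of -0.0037 over all genes. Src, a kinase that phosphorylates receptor tails, had the smallest p, with 63.0 ± 4.19 CPM (n = 4, SD) in EYFP and 75.5 ± 6.32 CPM (n = 3, SD) in ATG7 (log2 fold change 0.26, SE 0.0795, edgeR adjusted p = 0.199). Syk was at 204.9 ± 28.2 and 237.6 ± 14.5 CPM, and the Clec4 adaptor Fcer1g at 238.4 ± 17.1 and 280.9 ± 30.5 CPM. Tyrobp, the adaptor of Clec5a, was at 331.6 ± 30.0 and 379.7 ± 29.8 CPM, and Card9 at 99.9 ± 13.1 and 108.9 ± 11.3 CPM. None of these 4 genes of the chain passed. They were singled out by their place in the pathway, with their values known.

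The 5 phosphatases and other brakes included 0 called genes (edgeR, DESeq2 and limma-voom) and 1 at an unadjusted p under 0.05 (6.27% of all genes with ATG7 higher). That gene was Ptpn6, the phosphatase recruited by inhibitory receptors (log2 fold change 0.23, SE 0.0876, edgeR adjusted p = 0.330). The list had a median of 0.06. Of 6 ligands and counter-receptors, 5 passed the filter on low counts and 0 were called by any of the 3 tools. In 1 of the 5 the unadjusted edgeR p was under 0.05, beside the same 6.27% of all genes. Lgals9, which encodes galectin-9, a reported ligand of Clec7a, had the smallest p (log2 fold change 0.26, SE 0.0938, edgeR adjusted p = 0.295). Klrb1b, the receptor of Clec2d, was at 0.716 ± 0.155 CPM (n = 4, SD) in EYFP and 1.05 ± 0.274 CPM (n = 3, SD) in ATG7, with groups that overlapped.

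Among 15 cytokine, chemokine and other genes known as outputs of this pathway, 12 were tested and 1 was called higher, none lower. Over all genes tested the shares were 0.688% and 0.0677%. The called gene was Il12b, the shared subunit of interleukin-12 and interleukin-23. It rose from 0.765, 0.763, 0.310 and 0.540 CPM in EYFP 1 to 4 to 1.70, 2.08 and 2.00 CPM in ATG7 1 to 3. The groups did not overlap, and the increase was 1.70 on the log2 scale (SE 0.304, edgeR adjusted p = 0.0293, Benjamini-Hochberg). It passed in 10 of the 15 alternatives, with an adjusted p from 6.97e-05 to 0.293. The call was lost without EYFP 4, ATG7 1, ATG7 2 or ATG7 3 (edgeR adjusted p = 0.107, 0.0606, 0.140 and 0.143) and with the replicate block (0.293). Il1b, the inflammatory cytokine, was at 11.5 ± 2.00 CPM (n = 4, SD) and 17.7 ± 4.20 CPM (n = 3, SD) and was called by DESeq2 but not by edgeR (edgeR adjusted p = 0.159). The median log2 fold change of the list was 0.45, with 11 of 12 above 0, beside 9439 of all 19199 genes. These cytokine genes answer many receptors other than lectins.

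Of 39 further C-type lectin receptor genes, 30 were tested and edgeR called 0. In 6 of the 30 the unadjusted edgeR p was under 0.05 with ATG7 higher, beside 6.27% of all genes. DESeq2 called Clec2i, Cd69 and Olr1 higher, beside 406 of all 19199 genes, and limma-voom called 0. Clec2i, a relative of Clec2d, had the smallest p, at 1.91, 2.12, 1.93 and 2.33 CPM in EYFP and 3.50, 3.62 and 3.40 CPM in ATG7 (log2 fold change 0.76, SE 0.169, edgeR adjusted p = 0.0815). Groups did not overlap with ATG7 above in 6 of the 30, beside 6.33% of all genes tested, namely Clec2i, Olr1, Cd69, Asgr2, Klre1 and Cd209g. The median log2 fold change was 0.16, with 23 above 0 and 7 below (9439 and 9760 over all genes).

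**Figure D3:**
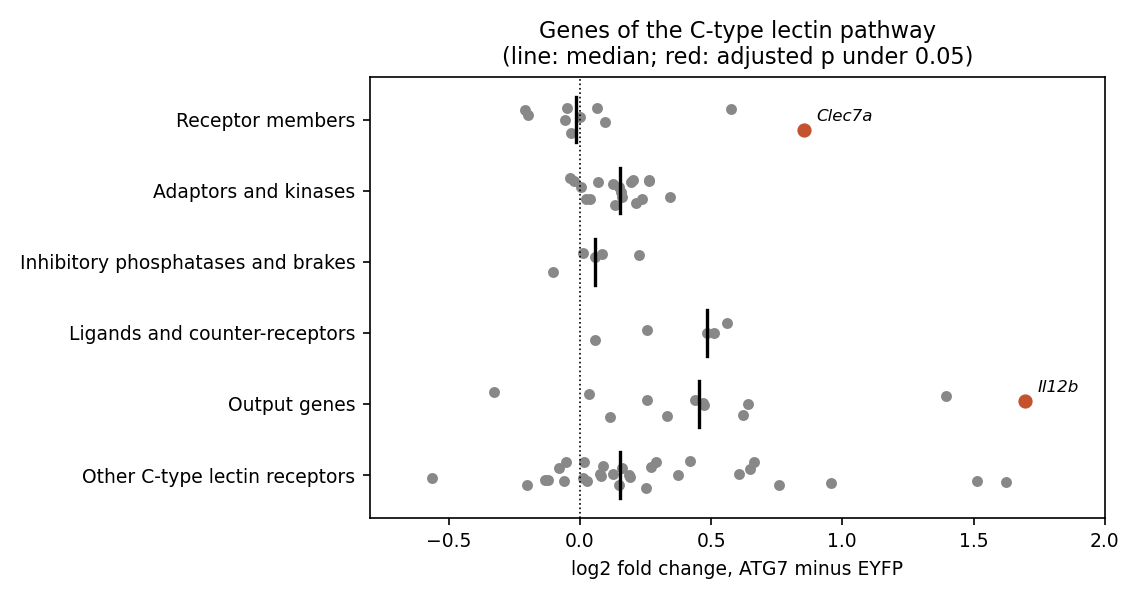
Log2 fold changes (ATG7 over EYFP) of the tested genes in the member list and the 5 lists of related pathway genes, 1 point a gene with the median marked. Most points of the pathway lists lie between 0 and 1 on the log2 scale, while the 10 members centre on -0.02, and the red points of called genes are Clec7a and Il12b.

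All 10 genes lie on mouse chromosome 6. A group of 6 members forms a cluster of 368 kilobases from Clec4a1 to Clec4e (122921848 to 123289870), which holds 13 annotated genes. None of the 6 was called. Of the 7 other genes in the cluster only Clec4a4 and Clec4b1 had enough counts for the test, with 0 called and 0 non-overlapping. Over all genes 0.755% were called, and 6.33% did not overlap with ATG7 above and 4.91% with ATG7 below.

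Clec2d, Clec12a and Clec7a lie in a separate stretch of 292.2 kilobases (129180615 to 129472779), and Clec5a lies alone on another part of the chromosome. Of the 10 other genes between Clec2d and Clec7a, 5 were tested and edgeR called 0. Cd69, an early activation antigen of lymphocytes and other leukocytes, was the single non-overlapping one of the 5, beside 6.33% of all genes with ATG7 above. Its level was 2.34 ± 1.03 CPM (n = 4, SD) in EYFP and 7.16 ± 1.94 CPM (n = 3, SD) in ATG7 (log2 fold change 1.62, edgeR adjusted p = 0.101). Clec12b, Clec1b, Clec9a and Clec1a, the genes between Clec12a and Clec7a that encode lectin receptors, all overlapped between the groups. The 3 members of this stretch thus had log2 fold changes of 0.57, -0.21 and 0.85 in chromosomal order.

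**Figure D4:**
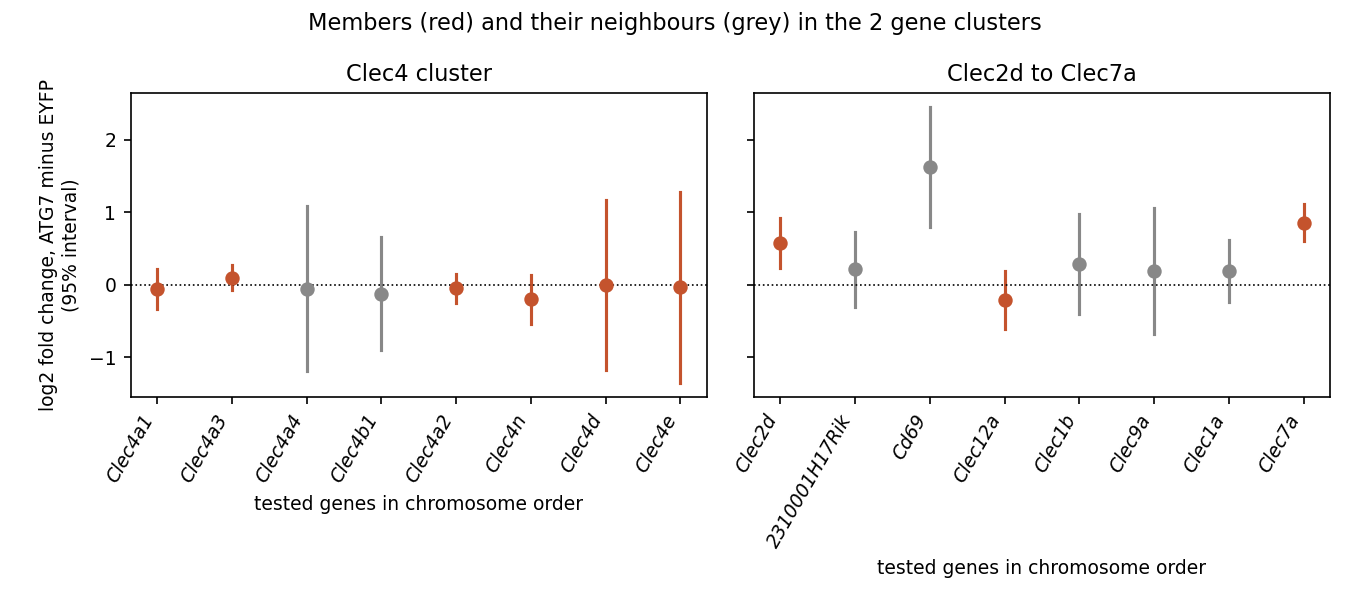
Log2 fold change (ATG7 over EYFP) of the genes in the 2 chromosome 6 clusters, with 95% intervals, for the tested genes in chromosomal order (members in red, neighbours in grey). The 6 Clec4 members sit between -0.20 and 0.10, and in the other stretch Clec2d, Cd69 and Clec7a have intervals above 0.

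The genes whose log2 CPM followed Clec7a most closely over the 7 libraries, among 15041 genes with a mean of at least 1 CPM, were Gbp6 (Pearson r = 0.998), H2-K1 (0.997), Fgl2 (0.995), H2-D1 (0.995) and Slamf8 (0.995). These correlations describe 7 libraries that also share the group difference. All 5 genes were called higher, beside 0.688% of all genes, but genes chosen by correlation with Clec7a tend to share its group difference. Gbp6, a guanylate-binding protein induced by interferon, rose from 2.42 ± 0.614 to 7.66 ± 0.894 CPM, and Fgl2, a membrane prothrombinase, from 35.8 ± 9.16 to 94.4 ± 14.7 CPM. H2-K1, a class I heavy chain, rose from 564.9 ± 124.3 to 1146 ± 96.2 CPM, H2-D1, another heavy chain, from 788.6 ± 179.6 to 1635 ± 122.3 CPM, and Slamf8, a SLAM family receptor, from 12.5 ± 1.90 to 22.3 ± 1.71 CPM. Their edgeR adjusted p lay between 0.00705 and 0.0274. EYFP 3 was the lowest library for all 5, as it was for Clec7a, a likeness that the choice by correlation favours. The values of Gbp6, H2-K1 and H2-D1 are uncertain to the extent that reads are shared with near-identical relatives. Among the members, Clec2d correlated with Clec7a at 0.890 and the 6 others above 1 CPM at -0.32 to 0.46.

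Marker genes of the cells that a CD11b gate could hold were summed per library to set beside these results. Microglial markers summed to 21170 to 25870 CPM in EYFP and 21030 to 25930 CPM in ATG7. P2ry12, a defining microglial receptor, was at 3014 ± 359 CPM (n = 4, SD) and 2679 ± 310.4 CPM (n = 3, SD), and Tmem119 at 1798 and 1911 CPM on average. The defining markers of the labelled cell type were thus abundant in both groups. Border macrophage markers summed to 1166 to 1480 CPM and 1235 to 1306 CPM, most of it Stab1 (906.5 and 884.8 CPM on average). Cd163 was at 105.1 and 93.4 CPM, and Mrc1, not in the sum, at 274.4 ± 18.1 and 279.8 ± 37.0 CPM. Siglec1 did not overlap, at 34.26 to 42.07 CPM in EYFP and 43.45 to 67.16 CPM in ATG7. Its log2 fold change was 0.63 (edgeR adjusted p = 0.0836), and only DESeq2 called it higher. At an unadjusted edgeR p under 0.05, 1 of the 9 summed genes was higher (Siglec1) and 1 lower (Cbr2), beside 6.27% and 5.71% of all genes. Monocyte markers summed to 33.3 to 40.1 CPM and 31.5 to 62.4 CPM, with Ccr2 at 20.7 ± 2.80 and 20.3 ± 3.05 CPM and Ly6c2 at 2.75 and 7.63 CPM. In bulk RNA, fewer cells of a type cannot be told apart from less RNA per cell.

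The marker sums of T and NK cells and of dendritic cells were higher in each ATG7 library than in each EYFP library, as were Clec7a and Clec2d. Neither sum passed after adjustment. With 35 splits, full separation could not pass unless many of the 12 sums separated fully, so this result does not weigh on the separation. The B cell marker sum overlapped, at 12.05 to 13.15 CPM in EYFP and 8.57 to 13.53 CPM in ATG7. The 8 T and NK cell markers summed to 3.50 to 9.16 CPM in EYFP and 10.9 to 25.9 CPM in ATG7, a log2 difference of 1.23 (exact permutation p = 0.0286, two-sided, the smallest that the 35 splits allow, and 0.171 after Benjamini-Hochberg adjustment over 12 marker sums). All 8 had log2 fold changes above 0, 6 did not overlap between the groups (6.33% of all genes with ATG7 above), and none was at 0 in a library. EdgeR and limma-voom called 0 of them, and DESeq2 called 4 higher, beside 406 of all 19199 genes. The sum was lowest in EYFP 3 and highest in ATG7 3, as were Clec7a and Clec2d. Dendritic cell markers summed to 22.5 to 25.2 CPM in EYFP and 28.1 to 33.1 CPM in ATG7 (exact permutation p = 0.0286, adjusted 0.171). Of the 5 dendritic cell genes, Flt3, Zbtb46, Xcr1 and Itgae overlapped between the groups, with Flt3 at 3.59 and 4.44 CPM. The remaining gene, Ccr7, a chemokine receptor of migrating dendritic cells, rose from 1.22 ± 0.435 to 4.14 ± 0.984 CPM (log2 fold change 1.76, edgeR adjusted p = 0.0182). It passed in 12 of the 15 alternatives, and the call was lost without ATG7 2 (1.77, edgeR adjusted p = 0.0757), without ATG7 3 (1.57, edgeR adjusted p = 0.115) and with the replicate block (2.01, edgeR adjusted p = 0.185). The part of these cells in the values of Clec7a and Clec2d was not tested.

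Neutrophil markers summed to 488.9 to 698.4 CPM in EYFP and 696.3 to 794.0 CPM in ATG7 (exact permutation p = 0.0857, adjusted 0.343). Most of that sum was Csf3r, at 536.2 ± 87.8 CPM (n = 4, SD) and 690.1 ± 45.4 CPM (n = 3, SD), a receptor gene that microglia also express. S100a8 and S100a9, given above, overlapped between the groups. Choroid plexus RNA was abundant in all libraries, with marker sums of 54690 to 72150 CPM in EYFP and 46310 to 61020 CPM in ATG7 (exact permutation p = 0.257, adjusted 0.686).

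**Figure D5:**
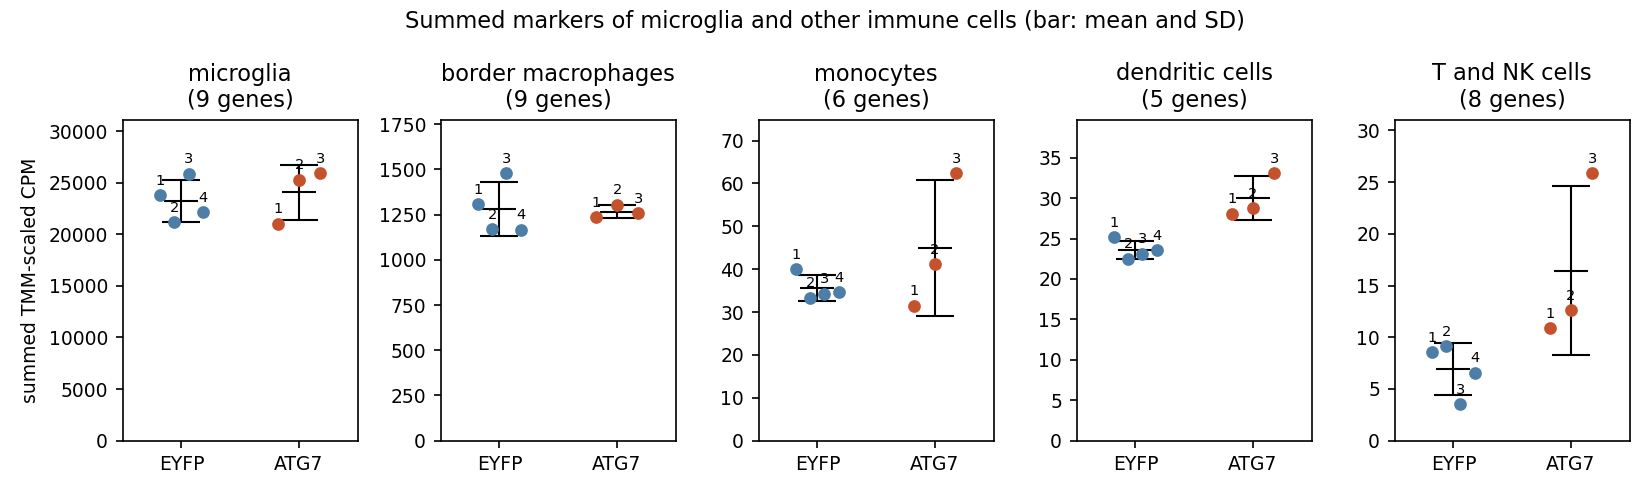
Summed CPM of the marker lists in each library, on a linear axis from 0, for 5 of the lists, with numbered points for libraries and bars for the mean and SD. The T and NK cell and dendritic cell sums of the ATG7 libraries lie above those of all EYFP libraries, and the microglial and border macrophage sums overlap.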

How the data were processed

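RNA from 7 CD11b-enriched libraries was analysed from a table of raw counts per gene deposited by the authors, with 55401 Ensembl identifiers. The submitters' processing notes name fastp 0.20.1, HISAT2 2.0.5, featureCounts and the mm10 or GRCm38 build. The annotation release, strand setting and handling of shared reads are not given in the sources used here, so antisense or overlapping genes cannot be told apart with certainty. The 37 mitochondrial genes were at 0 in every library. Columns were assigned to libraries by the names they carry. Symbols and coordinates came from GENCODE M21, which matched 55141 identifiers and left 260. Promoter windows came from RefSeq.

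The groups were compared with the edgeR 4.0.16 quasi-likelihood test in R 4.3.3, two-sided, on all 7 libraries, with trimmed mean of M values (TMM) scaling, filterByExpr and robust dispersion. Genes with a Benjamini-Hochberg adjusted p under 0.05 over the 19199 tested were called. CPM values are counts scaled by the TMM library sizes, log2 CPM used a prior count of 2, and the code was tested on simulated data. Counts carry no molecular identifiers per the labels, so the floor of 3 counts covers counting error only. The 15 alternatives were 3 other scalings, 2 other filters, DESeq2 1.42.0, limma-voom (limma 3.58.1) with quality weights, the replicate block and leaving out each library. The members, lists and tests were chosen with earlier results of these data known. Named genes were the members, called genes of each list or otherwise its gene of smallest p, called genes between clustered members, the 5 genes most correlated with Clec7a and 9 defining markers. Other genes named were chosen after their values were seen.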

Additional observations from a re-analysis of the deposited data

Results flagged for a closer look

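The neuron marker sum stood apart in 1 control library: EYFP 1 had 43.0 CPM, where the other 3 EYFP libraries had 21.4 to 24.6 CPM and the ATG7 libraries 27.6 to 29.5 CPM. Its gap to the nearest control was 0.849 of the control range, past Dixon's 95% critical value for 4 libraries. Of 24 values compared in this way, 1 lay past the limit, where chance gives 1.2. Among the 4 EYFP libraries EYFP 1 was also the highest for Clec7a (41.4 CPM) and Clec2d (30.7 CPM). Without it Clec2d passed (log2 fold change 0.69, edgeR adjusted p = 0.0443). The part of neuronal RNA in these values was not tested.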

How the results depend on the processing

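Over 15 alternatives, the members' fold changes gave 148 values, of which 129 kept direction and call, 3 lost a call, 2 gained one and 14 changed sign. Against 145 called genes (132 higher, 13 lower), leaving out the filter on low counts gave 297 (234 and 63), DESeq2 gave 582 (406 and 176, with 2 members higher), and limma-voom gave 25 lower. With the replicate number as a block the count was 0 (0 higher, 0 lower, 0 members higher) with edgeR, where 1256 genes had an unadjusted p under 0.05, and Clec7a was at 0.88 on the log2 scale without a call. Same-numbered libraries did not deviate together (correlations -0.0609, -0.182 and 0.0664), so the numbers were not taken to pair them, and 1 of 6 libraries correlated best with its own number. Leaving out 1 library gave 28 to 277 genes (26 to 209 higher, 2 to 68 lower), 0 to 2 members higher, and log2 fold changes of 0.74 to 0.93 for Clec7a and 0.37 to 0.69 for Clec2d (0.57 with DESeq2). It also gave -0.13 to 0.015 for Clec4a1, -0.15 to 0.0064 for Clec4a2, -0.32 to 0.37 for Clec4d and -0.43 to 0.38 for Clec4e, where the sign depended on the library left out. Clec4d was at -0.0036 with DESeq2 size factors, -0.015 with library size alone, -0.0079 with upper quartile factors and -0.27 with the block, and Clec4e at 0.064 with limma-voom. Neither had a value at a mean of at least 1 CPM. Alternatives for the marker sums were chosen after seeing the data: leaving out 1 library gave -0.0071 to 0.14 for microglia, -0.054 to 0.061 for border macrophages, -0.27 to 0.057 for B cells, -0.016 to 0.32 for neurons and -0.21 to 0.17 for astrocytes. Over the settings the median of all tested genes lay between -0.024 and 0.0031. The causes of these shifts were not tested. Clec4d and Clec4e rested on 6 to 65 counts per library, fewer than the other members, and the parts of depth and of spread between libraries in their wide intervals were not tested.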
